A study of Mus musculus with 28 samples.

Results

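Fos, Fosb, Jun, Junb, Egr1, Egr2, Atf3, Ier2 and Dusp6 are immediate early genes and a feedback gene of mitogen-activated protein kinase (MAPK) signalling. They were taken by name, with earlier results of these data known. All 9 were measured among the 11807 genes of a table of 24 microarrays that follows mouse fibroblasts into induced pluripotent stem (iPS) cells. Immediate early genes are switched on within minutes of a growth factor, serum or stress signal without new protein synthesis, and their transcripts decay quickly. Fos and Fosb proteins pair with Jun or Junb to form the transcription factor AP-1, Egr1 and Egr2 are zinc finger transcription factors, and Atf3 is a stress-responsive factor that can pair with Jun proteins. Ier2 encodes a nuclear protein of the early response. Dusp6 is a phosphatase that removes the activating phosphates from the MAP kinase ERK and is itself induced by ERK activity, so its transcript is widely read as a gauge of that pathway. In fibroblasts AP-1 is abundant and binds many enhancers, while mouse pluripotent cells in LIF and serum signal through ERK mainly downstream of FGF4.

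The fibroblasts (MEFs, C57BL6/129 strain) came from E13.5 embryos. These carried OKSM, a cassette that expresses the 4 reprogramming factors when doxycycline is given, and the Rosa26-M2rtTA transactivator it needs. Embryos had 1 copy of each allele or 2, and the labels do not say which arrays came from which. Doxycycline was given in serum medium with 1000 U/ml LIF. The sort on days 3, 6, 9 and 12 gave Thy1+ cells (SSEA1-negative), Thy1− cells (negative for both) and SSEA1+ cells (negative for Thy1 and GFP), and on day 12 a further fraction with both SSEA1 and GFP. Which gene the GFP reports is not given. Thy1 is a fibroblast surface protein and SSEA1 a carbohydrate antigen of mouse pluripotent cells. The day 0 MEFs were labelled Thy1+ sorted cells, and the labels do not name the medium they were taken from. The iPS cells, by their names derived from such MEFs, were labelled Thy1-negative, SSEA1+ and GFP+, and were preplated for 45 minutes to remove feeder cells. Antibody staining took 20 minutes per step before sorting. There were 2 arrays (M2 and M3) of MEFs and of each fraction of days 3 and 6, 3 arrays of iPS cells (1-3, 1-5 and 1-6), and 1 array (M2) of each day 9 and day 12 group. Whether arrays of a group stand for different animals or cultures is not stated. The p-values therefore cover the spread among these arrays alone, possibly technical, and the small number of arrays limits the precision. Fractions of 1 day and replicate name may come from 1 culture.

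Levels are RMA log2 signals, so that 1 unit is a 2-fold difference, and they were compared for a gene between arrays, never between genes. A difference was called where limma's Benjamini-Hochberg adjusted p over all 11807 genes was under 0.05 and the difference at least 2-fold. The mean of 7 measured fibroblast markers was 12.07 and 12.1 in MEFs and 6.99 to 7.9 in iPS cells, and that of 7 pluripotency markers 4.3 and 4.31 in MEFs and 11.13 to 11.43 in iPS cells. The mean of 6 macrophage markers was 4.29 to 4.81 on every array other than iPS, where it was 4.71 to 5.11. On the day 6 Thy1+ M2 array the Gapdh 3′ signal exceeded the 5′ signal by 1.78 (log2), against 0.579 to 1.11 on the other arrays, and its group had the widest spread (root mean square SD 0.464). Of the iPS arrays, 1-3 had the highest signals of the fibroblast genes Col1a1 and Thy1. Col1a1 was at 10.09 against 9.37 and 8.71, and Thy1 at 6.87 against 6.6 and 6.1. In bulk samples fewer cells of a type and less RNA per cell cannot be told apart.

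Upstream sequences were available in RefSeq (GRCm38.p6) for 7 of the 9 genes. The 250 bases before the annotated start were searched for motifs of the factors known to drive or form the early response. Those of Fos, Egr2 and Atf3 are printed 5′ to 3′, because they hold the matches and because these genes show the patterns described next, a low level on day 3 in Fos and Egr2 and a peak on day 6 in Atf3. Capitals mark the matches.
Fos (chr12:85473640-85473889, plus strand): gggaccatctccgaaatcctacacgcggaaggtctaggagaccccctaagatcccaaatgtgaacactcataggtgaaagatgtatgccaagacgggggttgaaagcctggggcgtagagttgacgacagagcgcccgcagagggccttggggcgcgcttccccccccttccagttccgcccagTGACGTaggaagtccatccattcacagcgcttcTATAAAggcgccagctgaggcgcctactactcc
Egr2 (chr10:67537619-67537868, plus strand): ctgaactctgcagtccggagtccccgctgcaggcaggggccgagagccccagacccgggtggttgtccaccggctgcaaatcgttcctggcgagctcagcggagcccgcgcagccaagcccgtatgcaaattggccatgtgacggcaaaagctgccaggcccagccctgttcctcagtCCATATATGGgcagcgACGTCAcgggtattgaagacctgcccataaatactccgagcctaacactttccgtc
Atf3 (chr1:191183334-191183583, minus strand): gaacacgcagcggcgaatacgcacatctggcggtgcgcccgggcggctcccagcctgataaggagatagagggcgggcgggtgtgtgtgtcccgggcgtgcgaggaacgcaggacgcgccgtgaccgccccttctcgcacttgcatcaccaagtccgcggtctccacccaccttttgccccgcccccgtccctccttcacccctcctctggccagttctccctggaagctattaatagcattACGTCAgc
The letters TGACGT, the core of the cAMP response element to which CREB and ATF proteins bind, lay 66 bases before the start of Fos. On the other strand, as ACGTCA, they lay 56 bases before the start of Egr2 and 8 bases before that of Atf3. Of all 32851 windows of this length 6.47% hold the core on either strand. The core is part of the full element TGACGTCA, which none of the 7 windows held (1.55% of all). Egr2 also had a CArG box, the site of serum response factor, spelled CCATATATGG and 72 bases before the start (1.47% of all windows). Fos had a TATA box, searched as TATAAA on the printed strand only, 33 bases before the start (7.59% of all). AP-1 sites (TGANTCA, 6.75% of all), EGR sites (GCGTGGGCG, 0.536%) and ETS sites (CCGGAAGT, 2.88%), searched on both strands, were in none of the 7 windows. Egr2 has 5 annotated starts, and the window with the most matches is shown. The percentages are over single windows and do not give the share for a window picked in this way. The windows of Fosb, Jun, Junb and Dusp6 held none of the motifs as searched. Only set spellings within 250 bases were sought, so sites spelled otherwise or lying farther away would be missed.

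On day 3 of induction, 7 of the 9 genes were called lower than in MEFs, and 0 higher, where 6.89% of all genes were called lower and 5.92% higher. The median difference over the 9 genes was −1.16, against 0.03 over all genes. On every one of the 6 day 3 arrays 8 of the 9 genes lay below both MEF arrays, and Atf3 lay above both. The share of all genes whose arrays were apart in this way was not counted.

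Among the AP-1 genes, Fosb fell most. Its level was 9.93 and 9.45 on the MEF arrays and 6.17, 7.42, 6.24, 7.2, 7.42 and 6.92 on the day 3 arrays of Thy1+, Thy1− and SSEA1+ cells (M2 then M3 in each). All fractions were low, 6.94-fold below MEFs on average (−2.8, SE 0.33, adjusted p = 1.07e-05). Fos, at 12.69 and 12.6 in MEFs, was at 11.44 to 11.85 on day 3 (median 11.56), 2.05-fold lower (−1.04, SE 0.14, adjusted p = 4.64e-05). Jun, at 11.04 and 10.96 in MEFs, was at 9.66 to 9.99 (median 9.85), 2.23-fold lower (−1.16, SE 0.28, adjusted p = 0.00477). The call of Fos was lost, at −0.97 to −0.99, without the MEF M2, the day 3 Thy1+ M2 or the day 3 Thy1− M2 array, and that of Jun without the MEF M2 array (−1.12, adjusted p = 0.0536). Junb was at 6.52 to 6.96 on day 3 and at 7.66 and 7.5 in MEFs, a difference of −0.8 (SE 0.15, adjusted p = 0.000506) that did not reach 2-fold.

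Both EGR genes fell. Egr2 went from 10.75 and 10.67 in MEFs to 8.84 and 8.92 in Thy1+, 8.24 and 8.68 in Thy1− and 7.67 and 7.32 in SSEA1+ cells of day 3, 5.4-fold lower on average (−2.43, SE 0.3, adjusted p = 1.65e-05). The fractions did not overlap, with Thy1+ cells highest and SSEA1+ cells lowest. Egr1 went from 12.77 and 12.85 to between 11.38 and 12.09 (−1.12, SE 0.13, adjusted p = 1.06e-05). Fos and Egr1 lay near the top of the range of these arrays, whose highest signals were 13.8 to 13.96.

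Ier2 and the ERK phosphatase gene Dusp6 fell by similar amounts. Ier2 was at 9.54 and 9.4 in MEFs and at 7.48 to 7.74 on the 6 day 3 arrays (−1.88, SE 0.25, adjusted p = 3.83e-05). Dusp6 was at 9.83 and 9.5 and at 7.66 to 8.2 (−1.76, SE 0.17, adjusted p = 1.75e-06). All fractions and both replicate names were low for either gene. For the 8 genes that were lower, the difference from MEFs had the same sign in M2 and M3 taken separately, for example −3.32 and −2.27 for Fosb and −1.77 and −1.75 for Dusp6.

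Atf3 was the exception. Its MEF arrays differed, at 8.15 (M2) and 6.98 (M3), and the day 3 arrays were at 8.21 to 8.61, a difference of 0.84 (SE 0.29, adjusted p = 0.0386) that did not reach 2-fold. Without the MEF M2 array it was 1.42 and called (adjusted p = 0.00488). Every comparison of Atf3 with MEFs rests on these 2 unlike arrays.

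**Figure D1:**
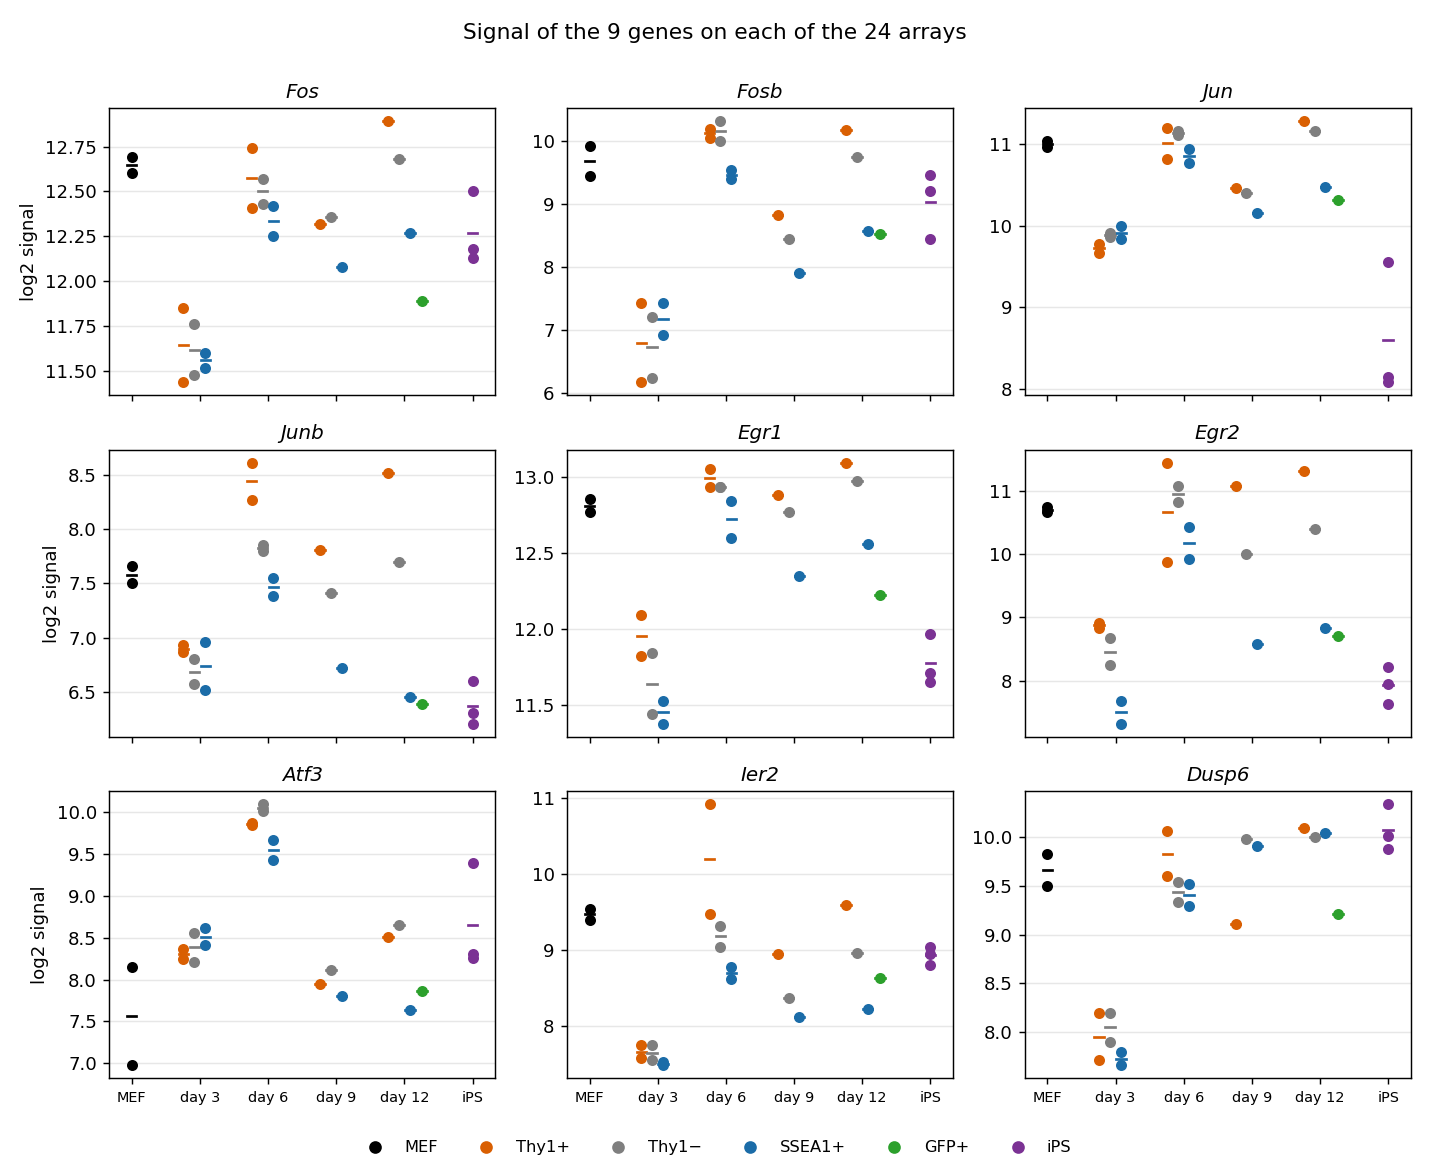
Log2 signal (vertical axis) of each gene on each of the 24 arrays, by day of induction with MEFs and iPS cells at the ends; points are arrays, short bars group means and colours sorted fractions, and each panel has its own scale. All 6 day 3 arrays lie below both MEF arrays in every panel but that of Atf3. There they lie above, the lowest at 8.21 against 8.15 on the MEF M2 array. How many of all genes are apart in this way was not counted.

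Of the 9 genes, 8 were called higher on day 6 than on day 3 (0 lower), where 2.09% of all genes were called higher and 1.43% lower. Fosb rose 8.14-fold, to 9.4 to 10.32 on the 6 day 6 arrays (3.03, SE 0.23, adjusted p = 4.54e-07). Egr2 rose 4.99-fold (2.32, SE 0.21, adjusted p = 2.29e-06), to 9.88 and 11.45 in Thy1+, 11.08 and 10.83 in Thy1− and 10.43 and 9.92 in SSEA1+ cells. Ier2 rose by 1.76 (SE 0.18) and Dusp6 by 1.65 (SE 0.12), with adjusted p of 6.4e-06 and 3.15e-07. Atf3 rose by 1.41 (SE 0.21), Egr1 by 1.19 (SE 0.09), Jun by 1.16 (SE 0.2) and Junb by 1.13 (SE 0.1), with adjusted p of 0.000157, 5.27e-07, 0.000578 and 1.97e-06. Fos, up by 0.86 (SE 0.1, adjusted p = 2.37e-05), did not reach 2-fold. For each of the 9 genes the lowest day 6 array lay above the highest day 3 array, which was likewise not counted over all genes.

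For 8 genes the mean of the day 6 fractions differed from MEFs by −0.18 to 0.33, and 0 of these differences were called. Single fractions lay farther off. Ier2 was 0.72 above MEFs in Thy1+ cells (SE 0.31, adjusted p = 0.095) and −0.78 from them in SSEA1+ cells (SE 0.31, adjusted p = 0.0682), and Junb was 0.86 above them in Thy1+ cells (SE 0.18, adjusted p = 0.00243), short of 2-fold. Atf3 alone was called, and higher (5.45% of all genes were called higher and 6.56% lower), at 9.84 and 9.87 in Thy1+, 10.09 and 10.01 in Thy1− and 9.66 and 9.43 in SSEA1+ cells (2.25 above MEFs, SE 0.29, adjusted p = 2.94e-05). Atf3 thus had its highest levels of the table on day 6, above all 18 other arrays.

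Where the fractions of a day and replicate name were averaged first, so that they no longer counted as separate arrays, the rise of Jun from day 3 to day 6 was no longer called (1.16, adjusted p = 0.0779). The change from day 3 to day 6 was also compared between SSEA1+ and Thy1+ cells as an interaction. Of the 9 genes 0 were called, where 1.86% of all genes were called in either direction, and 2 had an unadjusted p under 0.05. These were Junb, whose rise was smaller in SSEA1+ cells by 0.82 on the log2 scale (SE 0.25, adjusted p = 0.117), and Ier2, smaller by 1.35 (SE 0.44, adjusted p = 0.144), named after their values were seen. The day 6 Thy1+ arrays differed for Ier2 (10.92 on M2, 9.47 on M3) and Egr2 (9.88 and 11.45). The day 6 Thy1+ arrays decide these values. Without the M3 array the interaction of Ier2 was −2.07 (adjusted p = 7.36e-06) and that of Egr2 1.67 (adjusted p = 0.00163), both called, and the remaining array is the one with the high Gapdh 3′ signal. Without that M2 array they were −0.62 and 0.11 and not called.

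Several measures moved between MEFs and day 3 together with the 9 genes, and their part in the result was not tested. The 18S RNA signal was 11.998 and 12.017 in MEFs and 9.986 to 10.622 on day 3. On day 6 it was 9.38 to 11.176. The mean of the fibroblast markers went from 12.07 and 12.1 in MEFs to between 9.91 and 11.1 on day 3 and between 10.09 and 11.56 on day 6. The mean of 5 endothelial markers was 4.96 and 4.99 in MEFs and 5.45 to 5.55 on day 3, with Tek, which encodes the angiopoietin receptor, called higher (3.26, SE 0.28, adjusted p = 4.18e-07). Tek alone carried that rise. The median difference of the 5 was 0.06, and Kdr (4.44 and 4.5 in MEFs, 4.04 to 4.31 on day 3) and Emcn (4.17 and 4.19, then 3.4 to 3.69) were lower on day 3. MEFs and sorted cultures also differed in induction by doxycycline and in time in culture, which cannot be told apart here.

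**Figure D2:**
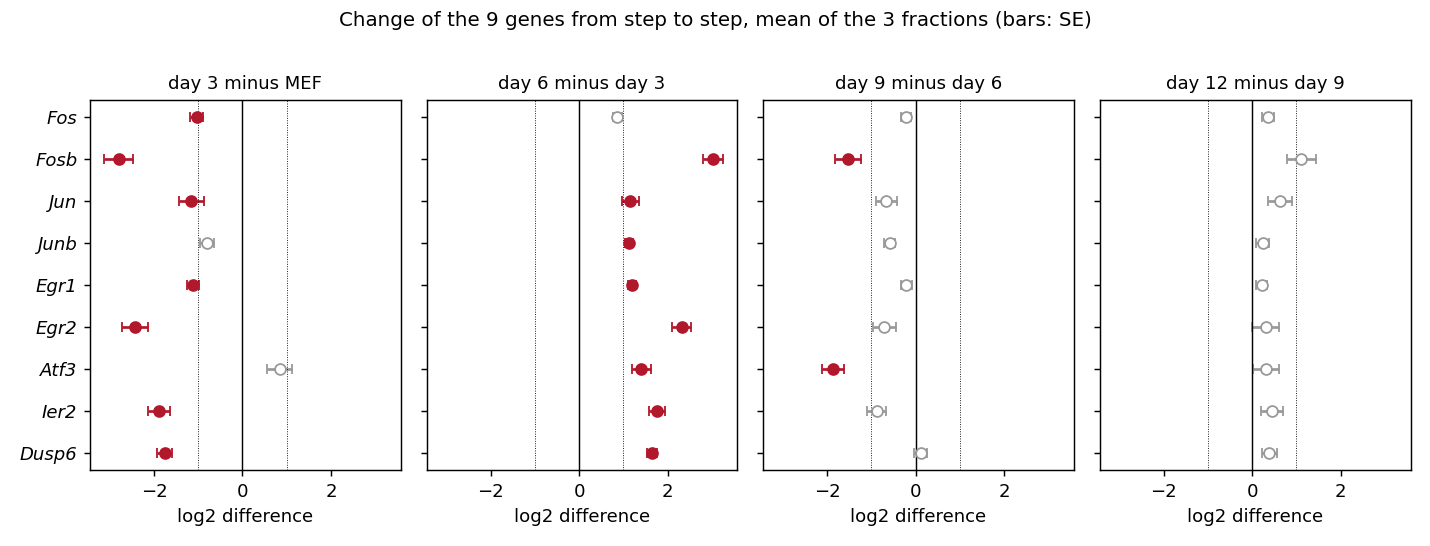
Log2 difference (horizontal axis) of each gene between successive stages, as the mean of the Thy1+, Thy1− and SSEA1+ fractions of a day; bars are SE, filled red points were called and open grey ones were not, and dotted lines mark a 2-fold difference. The fall by day 3 and the rise by day 6 are of similar size in 8 genes, with Fosb at −2.8 and 3.03. Atf3 rose at both of these steps, by 0.84 (not called) and 1.41, and fell by 1.86 from day 6 to day 9.

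Days 9 and 12 had lone arrays, for which the fit used the spread seen in groups with replicates. From day 6 to day 9, 2 of the 9 genes were called lower (0.263% of all genes) and 0 higher (0.161%). Atf3 fell by 1.86 on the log2 scale (SE 0.25, adjusted p = 0.00161) to 7.95, 8.11 and 7.8 in Thy1+, Thy1− and SSEA1+ cells, and Fosb fell by 1.53 (SE 0.29, adjusted p = 0.0135) to 8.83, 8.44 and 7.91. All 3 fractions moved together in each case. With the fractions averaged, neither was called (adjusted p = 0.394 for Atf3 and 0.327 for Fosb). Day 9 Fosb was also below MEFs (−1.3, SE 0.37, adjusted p = 0.0137), the only one of the 9 called then, where 7.12% of all genes were called lower and 6.39% higher. Without the MEF M2 array this was −1.05 and not called (adjusted p = 0.136). Ier2 missed 2-fold, at −1.0 (SE 0.28, adjusted p = 0.0132). From day 6 to day 9 Ier2 fell by 1.13 on the log2 scale and was called without the day 6 Thy1+ M3 array. That group then rests on the M2 array with the high Gapdh 3′ signal, where Ier2 was at 10.92 against 9.47 on M3.

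From day 9 to day 12, all 9 differences were above 0, between 0.21 for Egr1 and 1.11 for Fosb. Their median was 0.36, against −0.001 over all genes. Of the 9 genes 0 were called by limma, where 0.754% of all genes were called higher and 0.0847% lower. At an unadjusted p under 0.05 there were 4, for which no share of all genes was counted. Against MEFs the mean of the 3 day 12 fractions gave 0 calls among the 9 genes, and 0 at an unadjusted p under 0.05, where 6.42% of all genes were called higher and 7.04% lower. Of the 9 differences 8 were between −0.55 and 0.39, with Egr2 among them at −0.52 (SE 0.34), and that of Atf3 was 0.7 (SE 0.33). Without the MEF M2 array Atf3 was 1.28 above MEFs and called (adjusted p = 0.014). That mean hides fractions that lay on opposite sides of MEFs, which are described next.

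Over the 4 days, SSEA1+ cells had lower levels than Thy1+ cells in all 9 genes, with differences from −0.09 (Dusp6) to −1.45 (Egr2) and a median of −0.43, against 0.02 over all genes. Only Egr2 was called, where 5.07% of all genes were called lower and 3.5% higher in SSEA1+ cells. The difference for Egr2 was 2.74-fold (−1.45, SE 0.28, adjusted p = 0.000699) and had the same sign on all 4 days. On day 9 its level was 11.08 in Thy1+, 10.01 in Thy1− and 8.58 in SSEA1+ cells, and on day 12 it was 11.32, 10.4 and 8.84. SSEA1+ cells were thus closer to iPS cells (7.94, 7.63 and 8.22) than to MEFs, and Thy1+ cells lay above MEFs. The shares of all genes given above hold for the 2-fold rule only, and no share is given without it. Another 4 genes had an adjusted p under 0.05 without reaching 2-fold. They were Ier2 (−0.92, SE 0.23, adjusted p = 0.0039), Junb (−0.9, SE 0.19, adjusted p = 0.00119), Egr1 (−0.43, SE 0.09, adjusted p = 0.000936) and Fos (−0.25, SE 0.1, adjusted p = 0.0476). Ier2 was called, at −1.0 to −1.04, without the day 3 Thy1+ M2, Thy1+ M3 or SSEA1+ M2 array or the day 6 Thy1+ M3 array, and Junb, at −1.05, without the day 3 SSEA1+ M2 array. Without the day 6 Thy1+ M3 array, that group rests on the M2 array with the high Gapdh 3′ signal.

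Junb separated after day 3. It was at 7.81, 7.41 and 6.72 in Thy1+, Thy1− and SSEA1+ cells of day 9 and at 8.52, 7.7 and 6.45 on day 12, where GFP+ cells were at 6.39 and iPS cells at 6.31, 6.21 and 6.6. On day 3 the fractions had not been apart, with a difference between SSEA1+ and Thy1+ cells of −0.16. Fosb likewise went from a difference of 0.38 on day 3 to −0.66 on day 6, −0.92 on day 9 and −1.6 on day 12. Jun, by its brighter probe set, went from 0.2 to −0.15, −0.31 and −0.8. By the other Jun probe set SSEA1+ cells were above Thy1+ cells on day 9 (9.63 and 9.41). On day 12 they were below them (10.03 and 10.69), so that probe set did not widen steadily. The trend over days was not tested, since days 9 and 12 have 1 array per fraction. Of the others, Egr2, Egr1, Ier2, Atf3 and Dusp6 did not widen from day to day. The differences on the 4 days were −1.38, −0.49, −2.5 and −2.48 for Egr2, −0.5, −0.27, −0.52 and −0.53 for Egr1 and −0.16, −1.5, −0.84 and −1.37 for Ier2. They were 0.2, −0.31, −0.15 and −0.87 for Atf3 and −0.23, −0.42, 0.8 and −0.05 for Dusp6. Fos was at −0.08, −0.24, −0.24 and −0.63.

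Fibroblast markers were lower in SSEA1+ cells than in Thy1+ cells on the same arrays, with means of 8.9 and 11.91 on day 12 and 9.91 to 9.94 and 10.96 to 11.1 on day 3, and pluripotency markers higher, at 8.89 and 5.42 on day 12. Their part in the differences between fractions was not tested. SSEA1+ cells were also compared with the Thy1− fraction, which differs by SSEA1 alone in the sort. Egr2 was the only one of the 9 called (−1.08, SE 0.28, adjusted p = 0.0369), where 0.813% of all genes were called lower and 0.0847% higher. The call was lost when any 1 of the 12 arrays other than SSEA1+ M2 of day 3 or day 6 was left out, with differences of −0.93 to −1.14 and adjusted p of 0.0549 to 0.129. Between Thy1− and Thy1+ cells 0 of the 9 were called (1.91% of all genes in either direction), with 2 at an unadjusted p under 0.05. GFP+ cells of day 12 differed from the SSEA1+ array by −0.84 (SE 0.3, adjusted p = 0.106) for Dusp6 and by less than 0.42 for the other 8 genes. There 0 were called by limma, and 1 had an unadjusted p under 0.05 (7.18% of all genes were called in either direction).

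SSEA1+ cells of day 6 were also split by the epithelial adhesion protein EpCAM on 4 arrays of another table, whose levels are not set against those above. Of the 9 genes 0 were called by limma between EpCAM+ and EpCAM− cells, and 0 had an unadjusted p under 0.05, where 0.75% of 12394 genes were called in either direction. Dusp6 was at 11.37 and 11.51 in EpCAM− and at 11.61 and 11.69 in EpCAM+ cells, a difference of 0.21 (SE 0.09, adjusted p = 0.28). Egr2 was at 4.51 and 5.34 and at 4.21 and 4.83 (−0.41, SE 0.31). Fos was at 11.5 and 11.96 in EpCAM− cells and at 11.31 and 11.5 in EpCAM+ cells (−0.32, SE 0.17). The EpCAM− replicates differed from each other by more than the fractions did for Fos, Egr2 and Egr1, the last at 10.6 and 11.17 against 10.3 and 11.07. Within each replicate number these genes were lower in EpCAM+ cells. Whether the numbers mark pairs is not stated, and the fit did not pair them. Between the fractions Atf3, Fosb, Jun, Junb and Ier2 differed by −0.1 to 0.12. Fosb (4.64 to 5.22), Egr2 and Atf3 (5.98 to 6.19) lay below the medians of these arrays (6.553 to 6.58), where a difference is harder to see. Jun was read here from another probe set than on the 24 arrays.

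**Figure D3:**
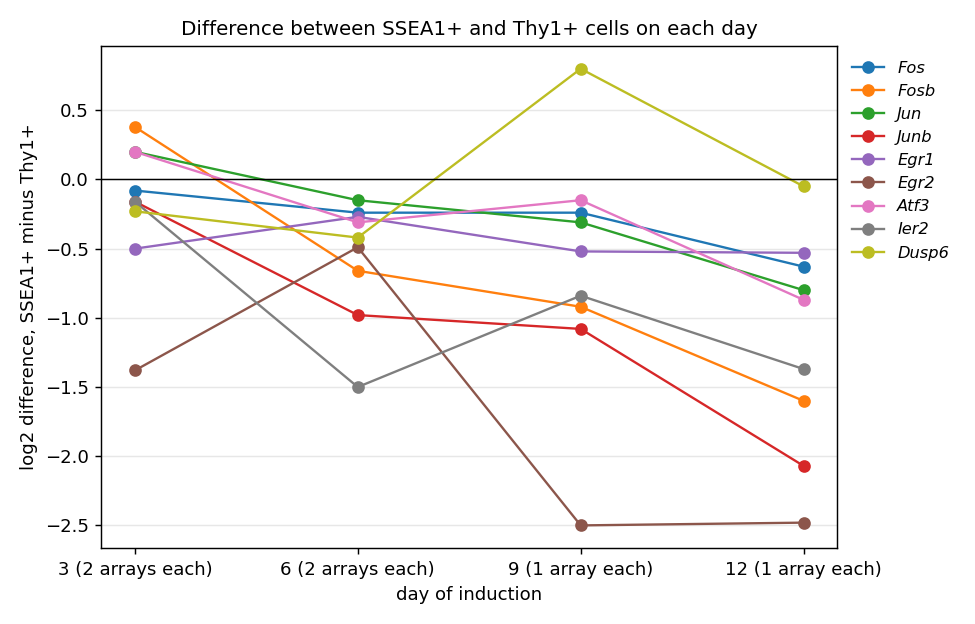
Log2 difference between SSEA1+ and Thy1+ cells (vertical axis) of each gene on each day of induction (horizontal axis); lines join the days of a gene, and the number of arrays per fraction is given under each day. On day 12 all 9 differences are below 0, from −0.05 for Dusp6 to −2.48 for Egr2.

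At the end of the process iPS cells had lower Egr2, Jun, Junb and Egr1 than MEFs, and higher Atf3. These were 4 genes called lower and 1 called higher, where 15.3% of all genes were called lower and 15.4% higher. Egr2 was 6.88-fold lower (−2.78, SE 0.34, adjusted p = 5.37e-06) and Jun 5.32-fold lower (−2.41, SE 0.31, adjusted p = 1.16e-05). Jun was at 8.08 and 8.14 on 2 iPS arrays and at 9.55 on the 1-3 array, against 11.04 and 10.96 in MEFs. Junb was lower by −1.21 (SE 0.16, adjusted p = 1.54e-05). Egr1, at 11.71, 11.65 and 11.97 in iPS cells, was lower by −1.03 (SE 0.15, adjusted p = 3.05e-05), and its call was lost, at −0.97 to −1.0, without the MEF M3, iPS 1-5 or iPS 1-6 array.

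Atf3, at 8.31, 8.26 and 9.39 in iPS cells, was 1.09 above the MEF mean (SE 0.33, adjusted p = 0.0111). Without the MEF M3 array the difference was 0.5 (adjusted p = 0.258), and without the iPS 1-3 array 0.72. Fos (−0.38), Fosb (−0.66), Ier2 (−0.54) and Dusp6 (0.41, SE 0.19, adjusted p = 0.0866) were not called. Dusp6 was at 9.88, 10.02 and 10.34 in iPS cells and at 9.83 and 9.5 in MEFs.

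Of the 13 sorted groups, all 13 were called higher than iPS cells for Jun, 7 each for Junb and Egr2 and 5 for Egr1, where 11.6% of all gene and group pairs were called higher. For Dusp6 0 groups were called higher than iPS cells and 3 lower (11.2% of all pairs), which were the fractions of day 3, at 7.66 to 8.2. Against MEFs, 6 groups each were called lower for Egr2 and Ier2, 4 for Fosb, 3 each for Fos, Jun and Dusp6 and 2 each for Junb and Egr1, where 8.02% of all pairs were called lower. Atf3 was called higher in 3 groups (7.41% of all pairs). These comparisons share the MEF or iPS arrays.

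By day, Jun by its brighter probe set was above iPS cells on all 4 days. The differences were 1.25 on day 3, 2.41 on day 6, 1.75 on day 9 and 2.38 on day 12. Egr2 was called higher than iPS cells on days 6, 9 and 12, by 2.67, 1.96 and 2.26, and Junb and Egr1 on days 6 and 12. On day 9 Junb (0.94) and Egr1 (0.89) were also above iPS cells, short of 2-fold. On day 3, 1 of the 9 genes was called higher than in iPS cells (11.2% of all genes) and 3 lower (10.6%). Jun was the higher one, and without the iPS 1-5 array its difference was 1.0 and not called. The lower ones were Dusp6 (−2.17, SE 0.15, adjusted p = 1.63e-08), Fosb (−2.14, SE 0.29, adjusted p = 1.63e-05) and Ier2 (−1.33, SE 0.22, adjusted p = 0.000118). The later days had 5 (day 6, 13.3% of all genes), 2 (day 9, 12.4%) and 4 (day 12, 12.0%) called higher, and 0 called lower, where 12.8%, 11.3% and 11.2% of all genes were. On day 6 Atf3 was the fifth (1.16), and its call was lost without the iPS 1-5 (0.99) or 1-6 array (0.97), while Fosb gained one without the 1-3 array (1.1).

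For Jun the difference from iPS cells depended on the probe set, on day 3 in direction as well as in size, so the counts of groups and days above rest on the brighter one. That probe set gave 1.25 on day 3 and 1.75 on day 9. The other gave −0.28 (SE 0.2) and 0.26 (SE 0.23), with iPS arrays at 8.99, 8.78 and 9.98 and day 3 arrays at 8.74 to 9.14. With the mean of both, the day 3 difference was 0.49 and not called (adjusted p = 0.0689). Both probe sets had Jun lower in iPS cells than in MEFs (−2.41 and −1.25), lower on day 3 than in MEFs (−1.16 and −1.52) and higher on day 6 than on day 3 (1.16 and 1.32). Those of Egr2 gave −2.78 and −2.64 in iPS cells against MEFs, −2.43 and −2.49 on day 3 and 2.32 and 2.24 from day 3 to day 6.

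The order of the 15 groups by level ended with the fractions of day 3 for Fos, Fosb, Ier2 and Dusp6 and with iPS cells for Junb and, by its brighter probe set, for Jun. By the other probe set of Jun the mean of day 3 lay below that of iPS cells. Few neighbours in these orders differed by over 2 SE. Of 14 neighbouring pairs there were 2 for Junb, 1 each for Jun, Egr2, Atf3 and Dusp6, and 0 for the others. For the brighter Jun probe set the step lay between day 3 Thy1+ cells (9.72) and iPS cells, for Dusp6 between day 9 Thy1+ cells (9.11) and the fractions of day 3, and for Atf3 between the day 6 groups and the rest.

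Across the 15 group means the 9 genes moved together to different degrees, which is given as a description, since groups share arrays, days and fractions. Pearson's r between 2 genes had a median of 0.76 over the 28 pairs without Atf3 (0.32 to 0.93) and of 0.29 over the 8 pairs with Atf3 (0.02 to 0.48). Fos and Fosb (0.93), Egr1 and Egr2 (0.93) and Fosb and Ier2 (0.92) were the closest pairs. Dusp6 was closest to Fos (0.83) and least like Atf3 (0.02) and Junb (0.32). Of 3266 genes whose group means had an SD of at least 0.5, those most like the mean profile of the 9 were Egfl6 (r = 0.917), Btg2 (0.902), Ier3 (0.879), Ppp1r15a (0.871) and Cdkn1c (0.868), followed by Ypel3, Socs3, N4bp2l1, Eln and Islr (0.855 to 0.862). Btg2, Ier3 and Socs3 are known early response genes, and Eln is the fibroblast matrix gene elastin. Most like Egr1 was Ccn2 (0.947), a matrix protein gene induced by serum and by YAP. Most like Dusp6 was Dner (0.878), and most like Atf3 were Cxcl2 (0.896), a stress-induced chemokine, Hey1 (0.89) and the clock gene Per1 (0.846), over 15 group means each.

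Lists of related genes, written from general knowledge, were read beside the 9. Of 37 measured other immediate early genes (40 listed), 11 were called lower on day 3 than in MEFs and 0 higher, where 6.89% of all genes were called lower and 5.92% higher, with a median of −0.31 against 0.03 over all genes. The largest falls were in the kinase gene Sgk1 (−3.0), Ier3 (−2.31) and Rhob (−2.08). From day 3 to day 6, 10 of the 37 rose and 1 fell (2.09% and 1.43% of all genes), with a median of 0.36, led by Socs3 (1.86, SE 0.16), a feedback inhibitor of LIF signalling, Ier3 (1.58) and the antiproliferative gene Btg2 (1.54). The gene that fell was Ptgs2 (−1.15), the inducible cyclooxygenase. In iPS cells 12 of the 37 were lower than in MEFs, among them Ptgs2 (−2.78), Ier5 (−2.59) and Id3 (−2.49), and 3 were higher, namely Klf10, Arc and Mcl1, where 15.3% of all genes were lower and 15.4% higher. In SSEA1+ cells 5 of the 37 were lower than in Thy1+ cells and 0 higher (5.07% and 3.5% of all genes), with Sgk1 at −1.4 and Socs3 at −1.17.

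Of the 18 measured MAPK feedback genes (22 listed) 3 were called lower on day 3 and 2 higher, against 6.89% and 5.92% of all genes. The Sprouty genes Spry1 (−3.36, SE 0.14, adjusted p = 2.34e-10) and Spry2 (−1.1), inhibitors of receptor signalling, and Spsb1 (−2.21) were lower than in MEFs, and Ccnd1 (1.61), the gene of cyclin D1, and Etv1 (1.01) were higher. From day 3 to day 6, 2 rose and 0 fell, Spry4 by 1.26 (SE 0.11) and Spry1 by 1.22 (SE 0.1). These rises stand beside 2.09% of all genes called higher. Among 27 measured parts of the MAPK pathway (43 listed), 4 were lower on day 3 and 1 higher (6.89% and 5.92% of all genes). The lower ones included the PDGF receptor gene Pdgfrb (−2.76), which is also a fibroblast marker, the scaffold gene Ksr1 (−1.31) and Mrtfa (−1.19), a coactivator of serum response factor. The HGF receptor gene Met was higher (1.62), and it was the only one called from day 3 to day 6, when it fell by 1.16 on the log2 scale.

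The share of all genes called on day 3, 6.89% lower and 5.92% higher, is also the background of the remaining lists. Of 21 growth factor genes (24 listed), 6 were lower on day 3, including Igf2 (−3.21), Igf1 (−2.79) and Pdgfc (−2.77), and 1 was higher, Fgf4 (5.55, SE 0.19, adjusted p = 5.91e-11). Igf2 rose again by day 6 (2.52). Of 18 integrated stress response genes 8 were lower on day 3, led by Chac1 (−4.19), Trib3 (−3.87) and Vldlr (−2.2), and 1 rose from day 3 to day 6, Ppp1r15a (1.06), while 1 fell. Atf3 is itself a gene that this response can induce. Of 12 measured heat shock genes (17 listed), which respond to the dissociation and handling of cells, 2 were lower on day 3, Hspa1b (−1.8) and Dnajb4 (−1.52), and 0 were called from day 3 to day 6. The lists were described by these counts and not tested as groups.

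**Figure D4:**
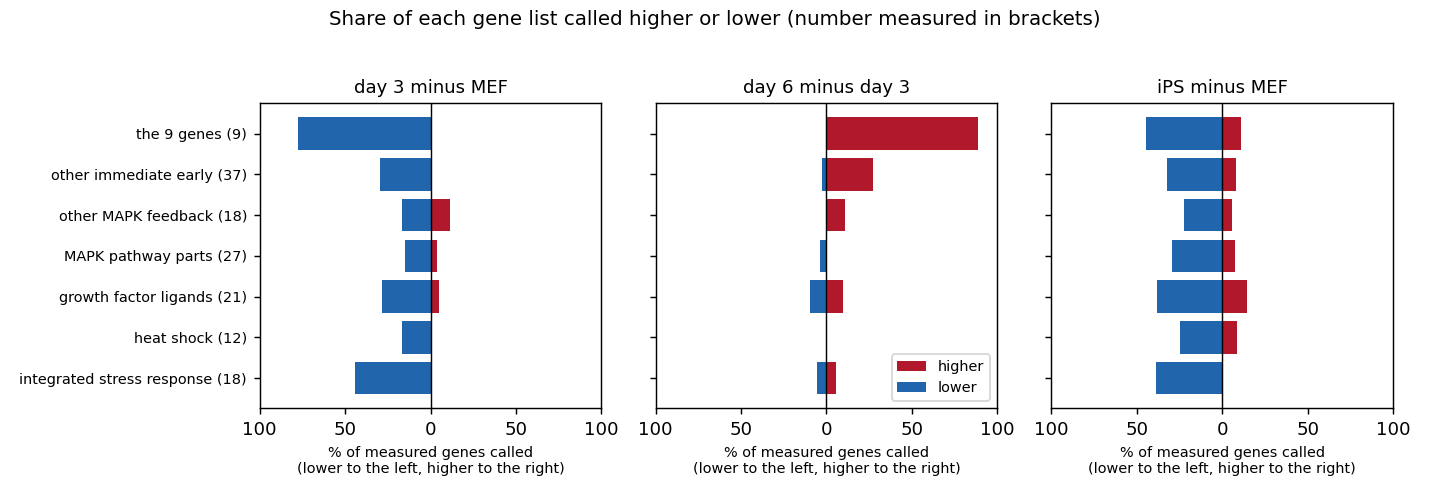
Percent of the measured genes of each list (horizontal axis, lower to the left and higher to the right) that were called on day 3 against MEFs, on day 6 against day 3 and in iPS cells against MEFs; the number measured stands in brackets. The 9 genes were chosen with results of these arrays known, so their long bars (7 of 9 lower on day 3, 8 of 9 higher on day 6) are a description beside the 11 and 10 of 37 other immediate early genes.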

How the data were processed

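Total RNA was hybridised to expression arrays, and each probe set has a deposited log2 value, computed by the authors with RMA (version not given) per the submitters' processing notes. The genome build and the arrays normalized together are not given in the sources used here. Of 22716 probe sets in the table of 24 arrays, 18003 carried 1 gene symbol, and a gene was read from its brightest probe set on average. RMA equalises the distribution of arrays, so a global change in RNA per cell cannot be seen. The table of 4 arrays (12394 genes) was analysed apart.

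The 9 genes, the lists and the tests were chosen with earlier results of these data known. Groups came from the labels. limma 3.58.1 in R 4.3.3 fitted 15 group means to the 24 arrays (9 residual degrees of freedom), with the mean of the 3 fractions for a day, and comparisons of fractions over days used 18 arrays with day and fraction as terms (residual degrees of freedom, 12). Lone arrays borrowed the spread of the replicated groups. Named besides the 9 were up to 3 called genes per list, comparison and direction, the 10 genes most like the mean profile and the 5 most like Egr1, Dusp6 and Atf3, of which the closest are given, and markers. Older list symbols were read as current ones through RefSeq synonyms. Alternatives were no minimum fold, no dim genes, quantile and median scaling, the mean of probe sets, another variance prior, the replicate name as a block, only the groups compared, the mean of within-day differences and each array left out. Averaging fractions and leaving out the day 6 Thy1+ M2 array were added after seeing the data, as were the alternatives of single groups against MEFs and iPS cells. Tested on simulated data with 200 changed genes of 11807, a log2 change of 1.5 was recovered for 98% between day 3 and MEFs, 100% between days 6 and 3, 99.5% between days 9 and 6 and 76.5% in the interaction. Python 3.11.15 (pandas 2.3.3, numpy 2.4.6) made the tables, and matplotlib 3.10.9 drew the figures.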

Additional observations from a re-analysis of the deposited data

Results flagged for a closer look

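On day 12 the SSEA1+ and Thy1+ arrays lay on opposite sides of both MEF arrays for 7 of the 9 genes, with SSEA1+ cells lower. How many of all genes split in this way was not counted, so the split is not shown to be particular to these genes. The differences between them were −2.48 for Egr2, −2.07 for Junb, −1.6 for Fosb, −1.37 for Ier2, −0.8 for Jun, −0.63 for Fos and −0.53 for Egr1. The same held on day 9 for Egr2 (−2.5), Junb (−1.08) and Egr1 (−0.52). For Dusp6 on day 9 the order was the opposite, with SSEA1+ cells above MEFs and Thy1+ cells below, 0.8 apart. These differences were not tested, because each rests on 1 array per fraction, and all share the MEF arrays. Fibroblast markers averaged 8.9 on the day 12 SSEA1+ array and 11.91 on the Thy1+ array, and their part was not tested. No group had enough arrays to look for a single array far from the others.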

How the results depend on the processing

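Under the alternatives, 2532 of 2592 values of single genes kept their side of the threshold, 30 lost a call and 30 gained one. The sign changed in 61 values, called under neither setting, and in 0 with a call on either side. Counts of the 9 genes that moved are given as the reported count, then the alternative. With no minimum fold, day 3 against MEFs gave 1 higher for 0, day 9 against MEFs 2 lower for 1, day 3 against iPS cells 2 higher for 1, day 6 against iPS cells 1 lower for 0, day 9 against iPS cells 4 higher for 2, and SSEA1+ against Thy1+ cells 5 lower for 1. Over the 13 groups it gave 5 pairs higher than MEFs for 3 and 16 lower than iPS cells for 9. These follow from dropping the 2-fold rule. For the following the cause was not tested. With only the groups compared, iPS cells against MEFs gave 0 higher for 1 and day 9 against day 6 gave 1 lower for 2. With fractions averaged, which leaves fewer arrays, the latter gave 0. With the mean of probe sets, day 3 against iPS cells gave 0 higher for 1. With the mean of within-day differences, SSEA1+ against Thy1+ cells gave 2 lower for 1. With the replicate name as a replicate block, day 9 against MEFs gave 2 lower for 1, Ier2 joining at −1.12, and Ier2 was also called from day 6 to day 9 (−1.01, adjusted p = 0.0383). Groups did not pair by replicate name (median r of deviations −0.013 over 21 pairs of groups, 5 above 0.1).

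Leaving out each array in turn gave a range of 0 to 1 called higher in iPS cells against MEFs, in day 3 against MEFs, in day 12 against MEFs and in day 3 against iPS cells. It gave 0 to 1 lower in day 9 against MEFs and in SSEA1+ against Thy1− cells, 0 to 1 in each direction of the interaction, 1 to 3 lower in SSEA1+ against Thy1+ cells, and 3 to 9 pairs higher than MEFs, the 9 without the MEF M2 array. Without the dimmest 25% of genes, with quantile or median scaling, with another variance prior and without the day 6 Thy1+ M2 array, no count of the 9 moved by over 1.5 times, though Egr1 in iPS cells lost its call with median scaling (−0.96). Median scaling moved the median of all genes in the interaction to −0.152. Counts over all genes moved by over 1.5 times in 44 cases, in 17 of 18 comparisons. With no minimum fold they were 4156 for 1513 on day 3 against MEFs, 3499 for 416 from day 3 to day 6 and 6624 for 3631 in iPS cells. With only the groups compared, 2 for 50 were called from day 6 to day 9. Only-group fits and leaving out arrays could not be run between lone arrays, and a lone day 9 or day 12 array could not be left out of the fit of group means. The number of arrays and the top of the signal range limit what can be resolved.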

Other observations

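GFP+ cells of day 12 were the stage closest to iPS cells in pluripotency markers (10.86 on average, against 11.13 to 11.43). By its brighter probe set their Jun was at 10.31, above all 3 iPS arrays (8.08 to 9.55). By the other probe set it was at 10.15, a smaller margin above the highest iPS array (8.99, 8.78 and 9.98). Junb was at 6.39, within the iPS range of 6.21 to 6.6. Egr2 at 8.71 and Egr1 at 12.22 also lay above the iPS arrays. Dusp6 at 9.21 lay below them (9.88 to 10.34). These are values of 1 array.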
